A study of Mus musculus with 10 samples.

Results

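The genes described here are 10 markers of the cells that line blood vessels and heart chambers: Pecam1, Cdh5, Kdr, Flt1, Tek, Tie1, Vwf, Emcn, Eng and Nfatc1. They were chosen by symbol, with earlier results of these data known, and all 10 were found among the 23337 genes of the deposited table. All 10 also passed the filter on low counts, as did 13084 genes in all. Their right atrial levels were compared between 4 mice whose label is control and 6 whose label is Tbx5 mutant.

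Messenger RNA libraries and total RNA depleted of ribosomal RNA are both described in the labels for these libraries, after removal of globin RNA, so the kind of RNA selected cannot be told from them. In the mice labelled Tbx5 mutant, exon 3 of Tbx5, a T-box transcription factor of atrial cardiomyocytes, was to be removed by a tamoxifen-inducible Cre recombinase. The labels give 0.167 mg of tamoxifen per day into the peritoneum for 3 days, with dissection 1 week later, and do not limit this treatment to either group. The labelled age was 8 to 10 weeks in both groups (the dissection protocol has 6 to 8 weeks), and the strain is given as mixed. The study's methods name R26 CreERt2 mice as controls and Tbx5 fl/fl;R26 CreERt2 mice as mutants for its own atrial libraries; the labels of these right atria give only control and Cre-driven removal. The study describes the R26 promoter as ubiquitous, which would include the endothelium. Whether these right atria carried the same allele is not given by their labels, and removal in single cell types was not measured.

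Endothelial cells line all vessels, and the endocardium is the specialised endothelium that lines the heart chambers. Both are held together by junctions of Pecam1 and VE-cadherin (Cdh5) and are kept alive and quiescent by receptor tyrosine kinases for vascular endothelial growth factors (Kdr, Flt1) and for angiopoietins (Tek, with its relative Tie1). Endoglin (Eng) is the co-receptor for bone morphogenetic proteins of the circulation, von Willebrand factor (Vwf) is stored and secreted to catch platelets, endomucin (Emcn) is a sialomucin of veins, capillaries and endocardium, and Nfatc1 is a calcium-regulated transcription factor used in the endocardium of the forming valves. In whole tissue, fewer cells of a type and less RNA per cell cannot be told apart, and this holds for every level below.

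RefSeq start windows on the GRCm38.p6 build, from 250 bases before to 50 bases after the start of the gene, were found for 6 of the 10 markers (Emcn, Eng, Flt1, Kdr, Tek and Tie1). The windows of Emcn, the only one of these 6 whose level passed the test, and of Flt1, the marker with the smallest spread between mice, are shown for comparison, 5′ to 3′ on the strand of the gene. Capitals mark AGGAAG or its reverse complement, letters bound by ETS factors, the family that drives many endothelial genes.
Emcn, chr3:137340828-137341127, plus strand: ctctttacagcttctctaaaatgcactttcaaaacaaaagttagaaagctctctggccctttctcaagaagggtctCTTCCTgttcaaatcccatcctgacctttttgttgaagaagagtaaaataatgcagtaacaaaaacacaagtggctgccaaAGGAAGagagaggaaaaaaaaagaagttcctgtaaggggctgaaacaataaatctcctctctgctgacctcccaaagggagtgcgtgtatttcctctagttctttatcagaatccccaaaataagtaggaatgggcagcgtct
Flt1, chr5:147725962-147726261, minus strand: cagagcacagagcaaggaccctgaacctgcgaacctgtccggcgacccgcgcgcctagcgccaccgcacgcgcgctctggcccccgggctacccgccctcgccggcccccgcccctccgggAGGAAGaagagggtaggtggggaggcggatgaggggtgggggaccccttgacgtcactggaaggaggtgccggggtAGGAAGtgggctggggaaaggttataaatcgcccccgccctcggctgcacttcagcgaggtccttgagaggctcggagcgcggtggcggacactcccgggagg
Both windows held the ETS letters at 2 places, at 174 and 93 bases before the start in Emcn and at 129 and 53 bases before it in Flt1. AGGAAG was found on either strand in 4 of the 6 windows (Emcn, Eng, Flt1 and Tie1) and in 35.4% of all 32851 RefSeq windows of the same length. The T-box letters AGGTGT were found in 0 of 6 windows and in 13.7% of all windows. The GATA letters AGATAA were in 1 of 6 (Tek) against 11.2%, and the SOX letters AACAAT in 2 of 6 (Emcn and Tek) against 10.7%. The searched letters of these 4 motifs do not overlap each other, and a match describes the window only.

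The libraries held between 5703775 and 7095141 counted reads. Levels are given as CPM, the reads of a gene relative to the scaled total of its library. Tbx5 had 205 ± 17.8 CPM (SD, n = 4) in the controls and 394 ± 83.3 CPM (n = 6) in the mice labelled Tbx5 mutant, which goes against the labels. The count covers the whole gene and does not show exon 3 alone. Genes of cardiomyocytes went in both directions between the labelled groups. Sln, the regulator of the atrial calcium pump and a gene treated as Tbx5-dependent in the study, was lower in all mutant mice than in any control. It had 1823 ± 244 CPM (n = 4) and 927 ± 164 CPM (n = 6), a log2 fold change of -0.98 (edgeR adjusted p = 0.000264). The atrial genes Myl7 (-2.73) and Nppa (-0.65, edgeR adjusted p = 0.0426) were also lower in all mutant mice than in any control. Sln, Myl7 and Nppa were picked after their values were seen. Among the other listed cardiomyocyte markers, Tnnt2, Pln and Actn2 were higher in all mutant mice than in any control. Their means in controls and mutants were 3332 and 7230 CPM (Tnnt2), 1639 and 3159 CPM (Pln), and 1323 and 1663 CPM (Actn2). Myl4 was lower in all mutant mice than in any control, and the groups overlapped for Myh6 and Ttn. Directions are given by label throughout. The Tbx5 mutant library M3 had 38.9% of its reads on the ribosomal RNA gene Rn45s, against 0.268% to 1.49% in the other 9. Reads of Xist and Ddx3y matched the labelled sex in the 6 mutant libraries and were opposite to it in all 4 control libraries.

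Of the 10 markers, Vwf was the only one called between the labelled groups, and it rose. Emcn rose as well, by less than the fold asked for, and Nfatc1 was lower by a difference just past the threshold. The remaining 7 (Pecam1, Cdh5, Kdr, Flt1, Tek, Tie1 and Eng) did not pass the test, and their log2 fold changes lay between -0.24 and 0.23. A gene was called when its adjusted p (edgeR quasi-likelihood test, Benjamini-Hochberg over all 13084 genes) was under 0.05, its fold change over 1.5 and its deposited normalized signal above 1 on average in the controls. By this rule 1 of 10 markers was called higher, where 8.50% of all genes were, and 0 of 10 lower, where 7.16% were. By adjusted p at any fold, 2 markers were higher against 16.3% of all genes, and 1 was lower against 15.0%. The median log2 fold change of the 10 markers was 0.03, and that of all genes was -0.005. The groups did not overlap in 1 of 10 markers, Vwf, with all 6 mutant mice above all 4 controls. Groups that did not overlap, in either direction, were found in 22.7% of all genes.

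**Figure D1:**
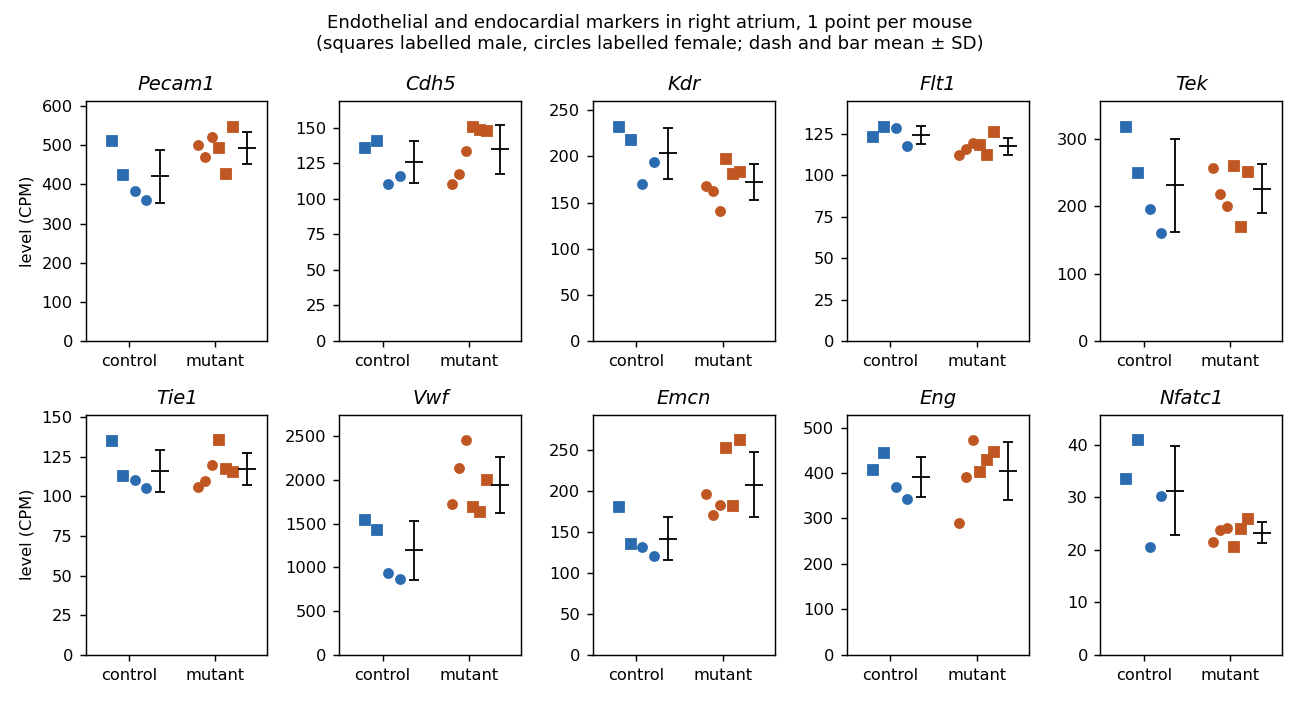
Level of each of the 10 markers in CPM (each axis from 0) in the 4 control mice (blue) and the 6 labelled Tbx5 mutant (orange), with squares for mice labelled male, circles for mice labelled female, and a dash and bar for the mean ± SD. All 6 mutant mice lie above all 4 controls for Vwf, 5 of 6 do for Emcn, and the groups overlap for the other 8 markers.

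Vwf, the secreted glycoprotein that tethers platelets and carries clotting factor VIII, lies on chromosome 6 from 125546774 to 125686679 on the plus strand (GRCm38, 52 exons in its longest transcript). Its level in the controls was 1543 CPM in M1, 1423 in M2, 939 in F1 and 872 in F2. In the mutant mice it ran from 1638 over a median of 1862 to 2453 CPM. The groups did not overlap, the controls fell into a higher pair labelled male and a lower pair labelled female, and the mutants labelled female reached the highest value. The means were 1194 ± 338 CPM (n = 4) and 1941 ± 318 CPM (n = 6), a 1.63-fold rise with a log2 fold change of 0.70 ± 0.18 (SE) and an edgeR adjusted p of 0.0104. The two-sided exact permutation test gave p = 0.00952, the smallest that the 210 splits of 4 against 6 mice allow. Without control F2 the log2 fold change was 0.58 (edgeR adjusted p = 0.0335), just under 1.5-fold, so that 0 markers were then called.

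Vwf had the most reads of the 10 markers, on the longest transcript (8.83 kilobases), and it took a larger share of the sum of the 10 in the mutant mice. The 10 markers summed to between 2420 and 3618 CPM in the controls and to between 3427 and 4367 CPM in the mutants. Vwf made up 36.1% to 42.9% of that sum in the controls and 45.4% to 56.2% in the mutants, ranges that did not overlap. Without Vwf, the other 9 summed to 1785 ± 245 CPM (n = 4) and 1896 ± 145 CPM (n = 6), and the ranges of 1548 to 2075 and 1761 to 2104 CPM overlapped over most of their length. Platelets and their precursors also hold Vwf. The 5 platelet and megakaryocyte genes listed summed to 28.4 to 77.0 CPM in the controls and 28.5 to 141 CPM in the mutants, with 0 of 5 called. Their log2 fold changes were all above 0, from 0.42 to 0.93, with a median of 0.52 against -0.005 for all genes. Their part in the Vwf difference was not tested.

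Emcn, the sialomucin that keeps leukocytes off the endothelial surface, lies on chromosome 3 from 137341067 to 137432185 on the plus strand, and its start window is printed above. Its level was 180 CPM in control M1, 136 in M2, 132 in F1 and 120 in F2, and ran from 171 over a median of 190 to 262 CPM in the mutants. Control M1 lay apart from the other 3 controls and overlapped the lowest mutant mouse, while 5 of 6 mutants lay above every control. The rise was 1.46-fold, with a log2 fold change of 0.55 ± 0.15 (SE) and an edgeR adjusted p of 0.0132, and the exact permutation p was 0.0190. It missed the 1.5-fold limit and was past it without control M1 (log2 fold change 0.69) or without mutant F2 (0.61), F3 (0.59) or M2 (0.59).

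The adhesion molecules of the junction did not pass the test. Pecam1, the platelet endothelial cell adhesion molecule (chromosome 11, 106654217 to 106750628, minus strand), had 511, 425, 384 and 360 CPM in control M1, M2, F1 and F2, and 428 to 548 CPM with a median of 497 in the mutants. All 6 mutant mice lay above the other 3 controls, and 2 of 6 lay above control M1 as well. Its log2 fold change was 0.23 ± 0.11 (SE, edgeR adjusted p = 0.137), with a 95% interval from -0.03 to 0.49, and it passed the test without control M1 (0.35, adjusted p = 0.0327). Cdh5, the VE-cadherin of adherens junctions (chromosome 8, 104101625 to 104144511, plus strand), had 126 ± 14.7 CPM in the controls and 135 ± 17.3 CPM in the mutants. Its groups overlapped over most of their range, and its log2 fold change of 0.10 had an interval from -0.16 to 0.36.

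Neither receptor for vascular endothelial growth factor passed the test. Kdr (VEGFR2), the main signalling receptor (chromosome 5, 75932827 to 75978458, minus strand), had 232, 217, 170 and 193 CPM in control M1, M2, F1 and F2, and 141 to 197 CPM with a median of 174 in the mutants. Of the 6 mutant mice 3 lay below every control, and the log2 fold change was -0.24 ± 0.11 (SE, edgeR adjusted p = 0.112, exact permutation p = 0.0857). With labelled sex as a covariate Kdr passed the test at nearly the same size (-0.24, edgeR adjusted p = 0.0479), and it did not pass with the labels of the controls exchanged, as their Xist and Ddx3y reads have it (-0.24, edgeR adjusted p = 0.117). The difference of Kdr shrank to -0.09 (edgeR adjusted p = 0.577) once the trend of the differences on transcript length was removed. Flt1 (VEGFR1), which binds the growth factor tightly and signals weakly (chromosome 5, 147561604 to 147726011, minus strand), was the steadiest marker. Its level was 124 ± 5.44 CPM in the controls and 117 ± 5.23 CPM in the mutants, a coefficient of variation of 4.37% and 4.46%, against up to 29.7% (Tek) in the controls for the other markers. Its difference of -0.09 on the log2 scale had an interval from -0.26 to 0.08 and turned to 0.11 once the trend of the differences on transcript length was removed.

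The angiopoietin receptor Tek (Tie2; chromosome 4, 94739289 to 94874976, plus strand) had close means, 231 ± 68.6 CPM in the controls and 226 ± 36.3 CPM in the mutants, within a wide spread. The controls had 318 CPM in M1, 249 in M2, 195 in F1 and 161 in F2, and the mutants 170 to 260 CPM with a median of 234. All 6 mutant mice lay inside the range of the controls, and the log2 fold change of -0.03 had an interval from -0.43 to 0.37 and changed its sign when single libraries were left out. Tie1, the related receptor (chromosome 4, 118471191 to 118490061, minus strand), had 116 ± 13.1 CPM in the controls and 117 ± 10.2 CPM in the mutants. Its interval ran from -0.20 to 0.24. Eng, the co-receptor for circulating bone morphogenetic proteins (chromosome 2, 32646595 to 32682669, plus strand), had 391 ± 43.5 CPM and 405 ± 63.4 CPM, with an interval from -0.25 to 0.35. Mutant F1 held the lowest and mutant F3 the highest Eng level of all 10 mice.

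Nfatc1, the endocardial transcription factor (chromosome 18, 80606205 to 80713071, minus strand), was the least abundant marker, with 95 to 247 reads per library. The controls had 33.4 CPM in M1, 40.9 in M2, 20.5 in F1 and 30.3 in F2, and the mutants 20.6 to 25.9 CPM with a median of 23.9. Control F1 lay below every mutant mouse and the other 3 controls above every one, so the difference rested on 3 of the 4 controls. The means were 31.3 ± 8.42 CPM (n = 4) and 23.3 ± 1.95 CPM (n = 6), and the level was 1.34-fold lower, with a log2 fold change of -0.43 ± 0.15 (SE), an edgeR adjusted p of 0.0445 and an exact permutation p of 0.0762. The adjusted p stayed under 0.05 in 2 of the 10 fits that left out a single library (control F1 or mutant M3) and was 0.0643 to 0.181 in the other 8.

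**Figure D2:**
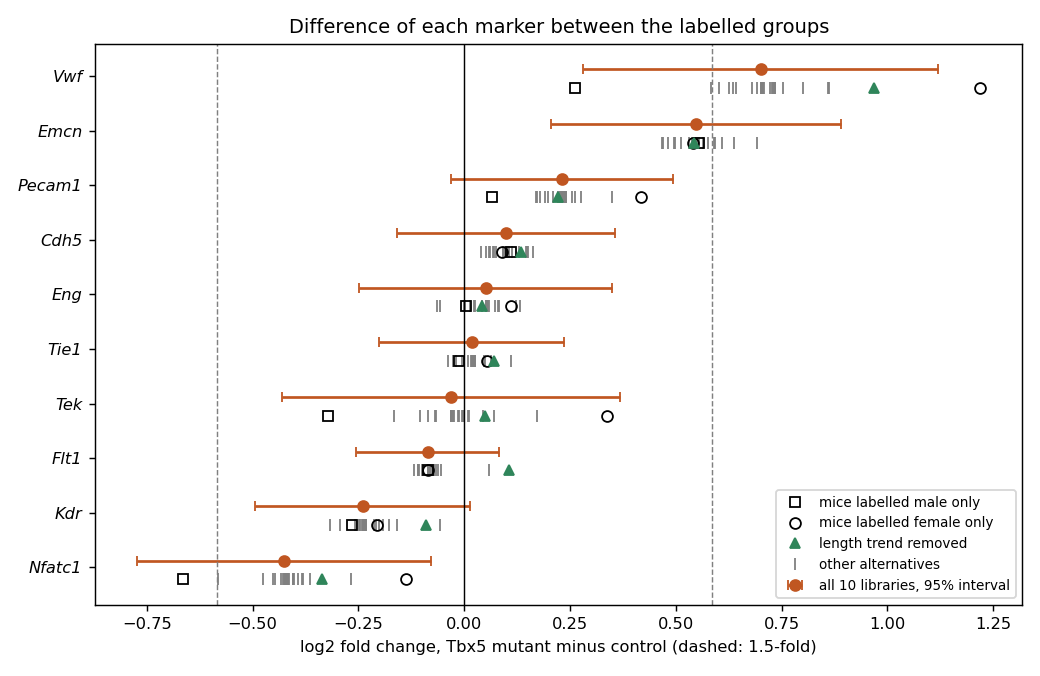
Log2 fold change of each marker, Tbx5 mutant minus control: orange points and bars give the value and 95% interval over all 10 libraries, and the marks below them give the alternatives, with squares for mice labelled male only, open circles for mice labelled female only and triangles for the removal of the length trend. Vwf and Emcn lie above 0 in every fit shown, with Vwf at 0.26 in mice labelled male and 1.22 in mice labelled female, and Nfatc1 lies below 0 in every fit shown.

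Levels were compared between markers per kilobase of the longest annotated transcript. In the controls the order of the means was Vwf (135 CPM per kilobase), Pecam1 (122), Eng (114), Tek (49.6), Emcn (40.4), Kdr (34.3), Cdh5 (31.5), Tie1 (27.4), Flt1 (18.0) and Nfatc1 (6.52). Of neighbours in this order, the ranges over the 4 mice were separate only between Eng and Tek, Tie1 and Flt1, and Flt1 and Nfatc1. Vwf was above Pecam1 in 2 of 4 control mice and in 6 of 6 mutant mice. In the mutants Vwf (220 CPM per kilobase) was also clear of Pecam1 (143), and Eng (118) of Emcn (59.0). Emcn had passed Tek (48.5), and Cdh5 (33.7) stood above Kdr (29.1), ahead of Tie1 (27.7), Flt1 (17.0) and Nfatc1 (4.86). Tek was above Emcn in 4 of 4 control mice and Emcn above Tek in 6 of 6 mutant mice.

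The other listed genes of endothelial cells, endocardium and the pathways of these receptors numbered 121 in the table, of which 114 were tested. Of these, 8 were called lower and 12 higher, or 7.02% and 10.5%, beside 7.16% and 8.50% of all genes. By adjusted p at any fold 20 of the 114 were lower and 20 higher, where 15.0% and 16.3% of all genes were. Their median log2 fold change was -0.02, and the medians of the single lists lay between -0.38 (angiopoietin pathway) and 0.13 (endothelial cells at large), apart from 1.10 for adhesion and activation. Among the genes named, Angpt1 had the largest fall and Edn1 the largest rise. The counts of single lists below are to be read beside the same shares of all genes, 7.16% lower and 8.50% higher.

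In the angiopoietin pathway, 1 of the 4 tested genes was called lower and 1 higher. Angpt1, the ligand that activates Tek, fell from 331 ± 95.5 CPM to 98.1 ± 51.6 CPM, 3.37-fold, with a log2 fold change of -1.75 ± 0.28 (SE, edgeR adjusted p = 0.000472). The controls had 258 to 471 CPM and the mutants 61.9 to 199 CPM, so the groups did not overlap for the ligand while they did for its receptor. Angpt2, the ligand that competes with it, had 14.0 and 9.08 CPM, a log2 fold change of -0.60 that did not pass (edgeR adjusted p = 0.0686), and passed without control F2 or mutant F3. Svep1, an extracellular protein that binds Tie1, rose from 66.7 ± 33.8 to 199 ± 57.2 CPM (log2 fold change 1.58, edgeR adjusted p = 0.00154). Ptprb, the phosphatase that silences Tek, had 262 and 235 CPM and did not pass (adjusted p = 0.230).

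Of the 8 genes of the VEGF pathway, 1 was called higher, where 8.50% of all genes were. Vegfd, a ligand listed in the table by an older symbol, rose from 2.39 ± 1.08 to 5.08 ± 1.47 CPM (log2 fold change 1.07, edgeR adjusted p = 0.0164) and lost the call without control F1 or F2. Vegfa, the main ligand of Kdr, had 198 and 168 CPM (log2 fold change -0.24, adjusted p = 0.110), and Vegfb, Vegfc and Pgf did not pass either. The co-receptors Nrp1 and Nrp2 rose by less than 1.5-fold. Nrp1 went from 341 to 461 CPM (log2 fold change 0.44, edgeR adjusted p = 0.0440, lost in 5 of the 10 fits without a library: control F1 or F2, or mutant M1, M2 or M3), and Nrp2 from 48.5 to 66.2 CPM (0.45, edgeR adjusted p = 0.00440).

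Around Eng, 2 of 15 genes were called lower and 0 higher, beside 7.16% and 8.50% of all genes. Bmp10, the right atrial ligand that binds Eng and Acvrl1, fell from 2658 ± 422 CPM to 1703 ± 405 CPM (log2 fold change -0.64, edgeR adjusted p = 0.0159), and was under the 1.5-fold limit without control M1, mutant M1 or mutant M2. The mutants reached 2115 CPM, above the lowest control at 2036 CPM, so the groups overlapped. Smad9, a transducer of this pathway, fell from 23.7 to 11.6 CPM (-1.02, edgeR adjusted p = 0.000279). Acvrl1, the endothelial receptor of Bmp10, rose from 32.7 to 45.0 CPM (0.46, edgeR adjusted p = 0.00593), less than 1.5-fold.

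At the junction, 1 of 9 partners of Cdh5 and Pecam1 was called: Ctnna1, the alpha-catenin that links cadherins to actin in many cell types, fell from 965 to 625 CPM (-0.63, edgeR adjusted p = 0.000969) and was under 1.5-fold without control F1 or mutant F2. Ctnnb1, which binds the tail of Cdh5, had 696 and 789 CPM and did not pass (adjusted p = 0.157). Among 8 tested genes of von Willebrand factor storage and clotting, F8, the clotting factor that Vwf carries, fell from 19.1 ± 5.97 to 8.76 ± 4.91 CPM (-1.10, edgeR adjusted p = 0.0179) and lost the call without control M1 or M2. Procr, the endothelial receptor of protein C, rose from 7.01 to 14.4 CPM (1.03, edgeR adjusted p = 0.00662). Of the 8 genes of calcineurin and NFAT signalling, Rcan1, a target and inhibitor of calcineurin, was called higher at 60.1 and 102 CPM (0.76, edgeR adjusted p = 0.0152), and was under 1.5-fold without mutant M2.

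All 4 listed genes of endothelial adhesion and activation were called higher, where 8.50% of all genes were. This short list was drawn with earlier results of these data known, so the count describes these 4 genes and is not a test. Edn1, the vasoconstrictor endothelin, rose from 6.10 ± 2.37 to 24.0 ± 3.17 CPM, with controls at 3.92 to 9.29 and mutants at 21.5 to 28.5 CPM (log2 fold change 1.97, edgeR adjusted p = 1.36e-05). Vcam1, the leukocyte adhesion receptor, rose from 106 ± 16.4 to 241 ± 38.4 CPM (1.19, edgeR adjusted p = 3.74e-05). In both, the mutant mice lay above all controls. Sele, the E-selectin of activated endothelium, had 2.17 and 4.45 CPM (1.01, edgeR adjusted p = 0.0348) and lost the call without control F1 or F2 or mutant F1, M2 or M3. Icam1, the last of the 4 and named after its values were seen, rose from 52.4 to 88.1 CPM (0.74, edgeR adjusted p = 0.00330). Vcam1, Icam1 and Edn1 are also made by other cells of the heart, and the summed markers of fibroblasts (7073 to 10272 against 3872 to 5205 CPM) and leukocytes (544 to 795 against 327 to 536 CPM) were likewise higher in every mutant mouse than in any control. The fibroblast list was not uniform, as shown by members named after their values were seen: Postn and the collagens Col1a1, Col1a2 and Col3a1 were called higher, Pdgfra was lower (-0.40, edgeR adjusted p = 0.0152, 5 of 6 mutants below all controls), and Dcn had a log2 fold change of -0.01. The part of these cells was not tested.

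Of 21 tested genes of endothelial cells at large, 2 were called higher and 0 lower, beside 8.50% and 7.16% of all genes. Icam2, an adhesion molecule of resting endothelium, rose from 24.1 ± 4.78 to 43.0 ± 7.80 CPM (0.82, edgeR adjusted p = 0.00109), and Fabp4, the fatty acid binding protein of capillaries and fat cells, from 152 to 252 CPM (0.73, edgeR adjusted p = 0.00443). None of 14 endothelial transcription factors was called in either direction, and 1 of them was lower by adjusted p alone, where 15.0% of all genes were. Of 8 tested endocardial genes, Nrg1, the ligand that endocardium sends to cardiomyocytes, rose from 1.70 to 4.48 CPM (1.42, edgeR adjusted p = 0.00650), Tmem100, a target of the Bmp10 receptor, rose from 50.0 ± 4.78 to 101 ± 9.82 CPM (1.02, edgeR adjusted p = 8.95e-06), and Tmem108 fell from 39.2 to 25.3 CPM (-0.63, edgeR adjusted p = 0.00260), under 1.5-fold without control F1 or mutant F1 or M2. In the artery list Hey1, a Notch target, fell from 36.7 to 23.2 CPM (-0.68, edgeR adjusted p = 0.0149; lost without control M2), and in the lymphatic list Prox1, which cardiomyocytes also use, fell from 45.0 ± 1.35 to 20.1 ± 3.64 CPM (-1.16, edgeR adjusted p = 2.36e-05). No tested vein gene was called, of 3.

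**Figure D3:**
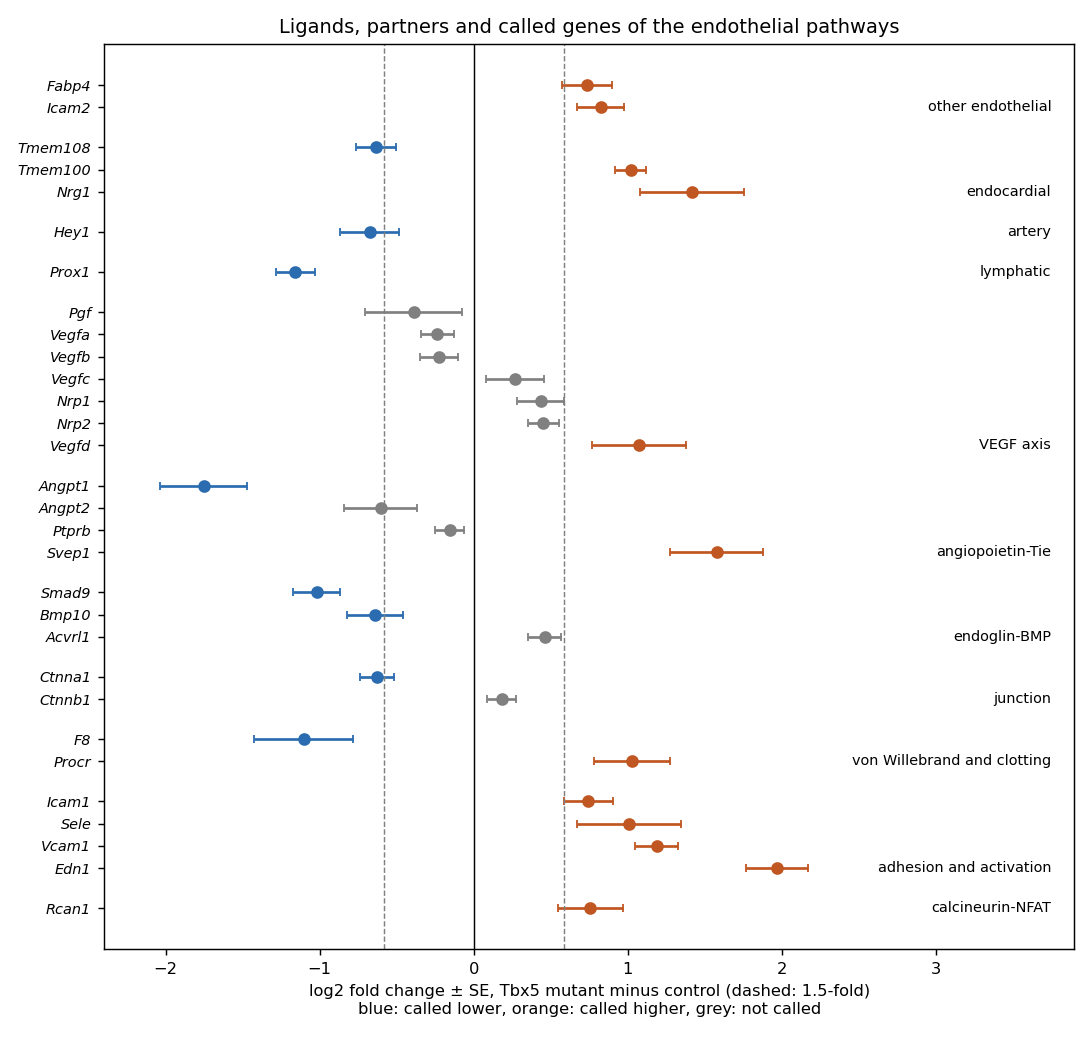
Log2 fold change ± SE, Tbx5 mutant minus control, of the named ligands, partners and called genes, grouped by list, with blue for called lower, orange for called higher and grey for not called, and dashed lines at 1.5-fold. Angpt1 lies lowest at -1.75 and Edn1 highest at 1.97, and the 4 genes of adhesion and activation all lie above 0.

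In 9 of the 10 markers the controls were split by labelled sex: both mice labelled male were above both labelled female for every marker but Flt1. Over all genes this order held for 23.5%, and the opposite order for 22.1%. The ratio of the means, labelled male over labelled female, was 1.64 for Vwf, 1.59 for Tek and 1.46 for Nfatc1 in the controls, and 0.842, 1.01 and 1.02 in the mutants. By Xist and Ddx3y reads the controls had the opposite sex, so the control and mutant ratios compare the sexes in opposite directions. Control F2 held the lowest level of 5 markers and control F1 of 2. In the mutants all mice labelled male lay above all labelled female for Cdh5 and Kdr only.

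The Vwf difference was also computed within each labelled sex. Among mice labelled male its log2 fold change was 0.26 (edgeR adjusted p = 0.363), and among mice labelled female 1.22 (adjusted p = 0.000511). By Xist and Ddx3y reads, each fit within a labelled sex set mutants against controls of the opposite sex. The interaction of -0.96 had an unadjusted p of 0.00147 and an edgeR adjusted p of 0.129, so the difference between the labelled sexes did not pass, and 0 of the 10 markers passed where 0.290% of all genes did. With the labels of the controls exchanged, as their Xist and Ddx3y reads have it, the interaction for Vwf was 0.46 (edgeR adjusted p = 0.595). Emcn had a log2 fold change of 0.56 in mice labelled male (edgeR adjusted p = 0.110) and 0.54 in mice labelled female (adjusted p = 0.00794). No marker passed the interaction test with the labels either way.

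Some genes that mark other cell types moved with the labelled groups as well, beside 7.16% of all genes called lower and 8.50% called higher. Beside the summed levels of fibroblast and leukocyte markers given above, 4 of 8 fibroblast markers (with Pdgfra lower by adjusted p) and 4 of 6 tested leukocyte markers were called higher. Of the markers of smooth muscle and pericytes 2 of 8 were called higher, at sums of 389 to 473 and 441 to 860 CPM. In this list 1 gene was lower by adjusted p alone, and the log2 fold changes ran from -0.58 to 2.01. The 9 cardiomyocyte markers summed to 135586 to 186439 CPM in the controls and 79955 to 151835 CPM in the mutants, with 3 called lower and 2 higher. Ttn was the largest part of this sum, at means of 82383 CPM in the controls and 51937 CPM in the mutants. It did not pass the test (edgeR adjusted p = 0.146), so the sum does not describe the 9 genes evenly. The 2 erythroid genes tested were called higher, at sums of 84.6 to 192 and 113 to 595 CPM over a list of 4. Pecam1 and Eng are also found on leukocytes, Vcam1 and Icam1 on fibroblasts and leukocytes, and the part of these cells in any difference above was not tested. The markers of mesothelium (288 to 303 and 179 to 343 CPM), fat cells (0.470 to 4.14 and 0 to 20.8 CPM) and Schwann cells (8.72 to 11.8 and 7.35 to 11.8 CPM) had no gene called.

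**Figure D4:**
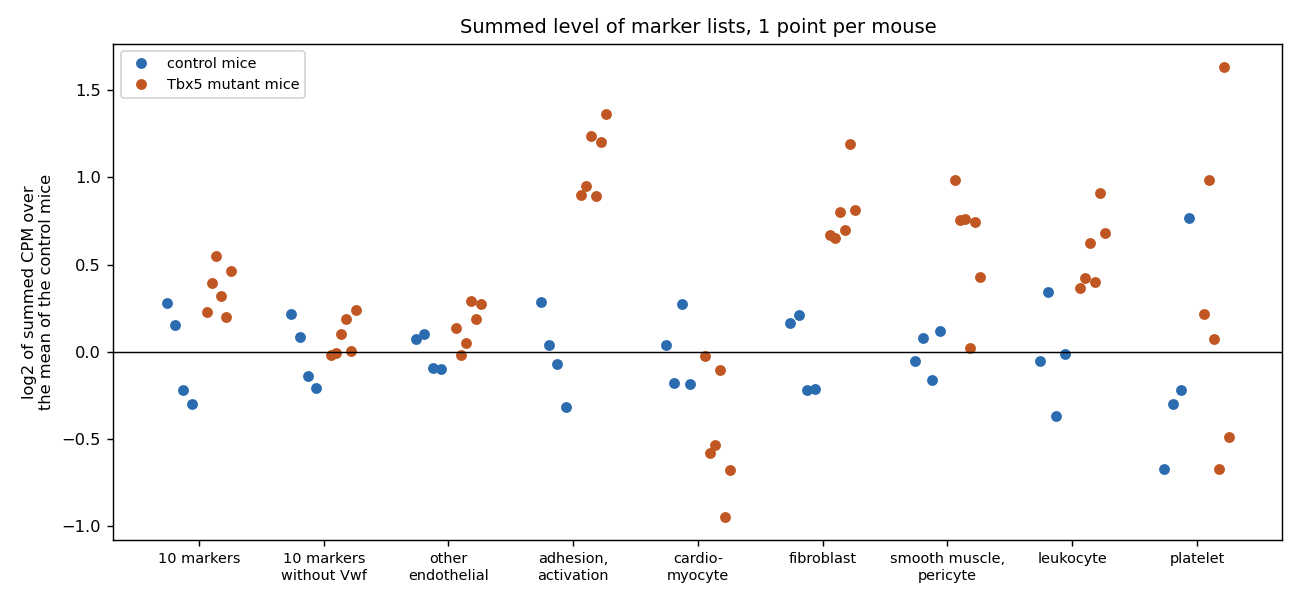
Summed level of each marker list in each mouse, as the log2 of its summed CPM over the mean of the 4 control mice, with blue points for mice labelled control and orange points for mice labelled Tbx5 mutant. The 10 markers without Vwf overlap between the groups (1548 to 2075 and 1761 to 2104 CPM), while the fibroblast, leukocyte and adhesion sums of the mutants lie above all controls.

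Among the genes whose pattern over the 10 libraries was most like the mean of the 10 markers were Ankrd27, Atp1b3, Il6st and Nxn, of 10941 genes compared. Likeness was the root mean square difference of centred log2 CPM, and it ran from 0.0721 for Ankrd27 to 0.0831 for Nxn. The mean pattern itself ranged from -0.25 in control F2 to 0.18 in mutant M3 on the log2 scale, and its lowest values were those of control F1 and F2. None of these 4 genes passed the edgeR test between the labelled groups, and their log2 fold changes lay between -0.01 and 0.06.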

How the data were processed

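Right atrial RNA-seq of 4 mice labelled control and 6 labelled Tbx5 mutant was analysed. The authors deposited 1 table of whole-number counts of reads per gene and library, without normalization, beside a normalized signal, each count over a size factor of its library, as computed by the authors. Its other columns are the authors' own DESeq2 comparison and were not used. The submitters' processing notes name FastQC, TopHat2 2.0.11, featureCounts, DESeq2 and the build mm10, and strand handling is not given in the sources used here. The 10 markers and all lists were chosen with earlier results of these data known.

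Counts were fitted with edgeR 4.0.16 in R 4.3.3 (expression filter, TMM scaling, prior count 0.125, quasi-likelihood test over all 10 libraries, no covariate). The thresholds were an adjusted p under 0.05, a fold over 1.5 and a mean deposited signal in controls over 1. SE is the size of a log2 fold change divided by the root of its F statistic, and 95% intervals are 2.306 SE on either side (8 residual degrees of freedom). The test itself shares spread between genes and uses more degrees of freedom, so these intervals are wider than the test implies. Exact permutation tests were two-sided and used log2 CPM (prior count 1). The fit and the trend removal were tested on simulated data.

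Totals ran from 5703775 to 7095141 reads, and 3 counts, taken as the floor, were 0.400 to 0.817 CPM. Each library is a separate mouse by its label. Gene and transcript positions are from GENCODE M21 (GRCm38), and the longest transcript gave the length. Alternatives were other scalings, filters, tools (DESeq2 1.42.0, limma 3.58.1), labelled sex, a replicate block, each library left out, and removal of length or GC trends. Named are the 10 markers, the ligands and partners they bind, and of each list up to 3 called genes with the largest change. Adamts13 had too few reads to be tested. Genes with the pattern most like the markers were also named, and a gene among them is not reported here. The differences of all genes followed transcript length (Spearman -0.32 over 12951 genes, against 0.11 for GC content), and the markers were 3.42 to 8.83 kilobases long, where the median gene was 3.47. Replicate numbers do not come from shared animals.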

Additional observations from a re-analysis of the deposited data

How the results depend on the processing

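Leaving out single libraries gave 0 to 2 markers called, 0 to 2 called higher and 0 to 1 lower by adjusted p, where the fit of all libraries gave 1, 1 and 1. Tek then ran from -0.17 to 0.17 and Tie1 from -0.0383 to 0.11 on the log2 scale, changing sign. The number of markers lower by adjusted p was 0 with upper-quartile scaling, limma, mice labelled female only, the length trend removed, and the replicate block with the length trend removed, and it was 2 with labelled sex as a covariate. In mice labelled male only, 1 marker was called lower (Nfatc1) and 0 higher, 1 passed by adjusted p and 0 of those were higher, and 8 pathway genes were called (5 lower, 3 higher). This uses 5 mice, and by Xist and Ddx3y reads its controls were of the opposite sex to its mutants. With the GC trend removed 2 markers were called, both higher (2). At a mean count of at least 50, which tests fewer genes, 1284 genes were called, 653 of them higher. At a fold over 2, 906 genes (367 lower, 539 higher), 0 markers (0 higher) and 12 pathway genes (4 lower) were called.

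Signs that turned, with the cause not tested except where stated: Eng with the replicate block (-0.0565), the GC trend removed (-0.00078) and the block with the length trend removed (-0.0653). Tie1 was -0.0119 in mice labelled male only and -0.0277 with the GC trend removed. Tek was 0.34 in mice labelled female only, 0.0486 with the length trend removed and 0.0696 with the block and length together. Flt1 was 0.11 and 0.0576 in those last fits. In mice labelled male only Vegfb was 0.0212, Vegfc -0.0645 and Pgf 0.29. Ptprb was 0.0252 in mice labelled female only, 0.19 with the length trend removed and 0.13 with block and length.

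Vwf kept an adjusted p under 0.05 in 25 of 26 alternatives (0.26 to 1.22) and Emcn in 25 of 26 (0.47 to 0.69), both failing in mice labelled male only. Nfatc1 did in 13 of 26 (-0.66 to -0.14). With the replicate block Vwf was 0.63 (edgeR adjusted p = 0.0465), and 1 marker was called. Same-numbered mice did not deviate together (mean r -0.0071 over 4 pairs, 0.0013 over 20 other pairs), so the numbers were not taken as pairs. Nfatc1, with 95 to 247 reads per library, is the marker most limited by depth. The exchange of the control sex labels was added after seeing the data and changed no call of a marker.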
